A study of Homo sapiens with 15 samples.

Results

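ERVL elements are endogenous retroviruses related to HERV-L, an old group of human proviruses. The set described here holds every repeat name that starts with HERVL, ERVL, MLT2, LTR16 or LTR33, which gave 37 of the 834 repeat names in the table. By name, 12 are MLT2, 11 LTR16, 5 LTR33, 6 HERVL and 3 ERVL. The MLT2, LTR16 and LTR33 names (28) stand for long terminal repeats (LTRs), and the HERVL and ERVL names (9), all ending in -int, for the internal region between the LTRs. The values are the percentage of methylated CpGs per repeat name from bisulfite sequencing, which reads unmethylated cytosines as thymine.

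A provirus enters the genome as an internal region with the viral genes, flanked by a pair of identical LTRs that hold its promoter and its transcription end signals. Recombination between the LTRs removes the internal region and leaves a solo LTR, so LTR copies usually outnumber internal copies. HERV-L elements carry no envelope gene and no longer move in humans. MLT2A1 and MLT2A2 are the LTRs of HERV-L itself, and in early human embryos they are switched on by the transcription factor DUX4. CpG methylation is one of the marks that keep such promoters silent in somatic cells.

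The study used DLD1, HCT116 and HCT8, established lines from human colorectal carcinomas, after culture with 5-azacitidine, a cytidine analogue that traps DNA methyltransferases, at 0, 500 or 1000 nM. Of the 5 libraries per line, 2 were technical replicates of untreated cells, 1 came from cells at 500 nM, and the remaining 2 were technical replicates of cells at 1000 nM. The labels do not state how long the cells were treated, and name no change other than the drug. The results on named ERVL repeats come from 1 library, replicate 1 of untreated DLD1. It has no usable replicate, so the differences between names below are descriptions without a test, and every SD is over names and not over samples.

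That restriction followed from a check of the columns. Related names had similar values in replicate 1 of untreated DLD1: the SD was 4.32 percentage points over the 11 LTR16 names and 8.72 points over the 12 MLT2 names. In the other 14 libraries the SD ranged from 7.82 to 24.3 points for LTR16 and from 10.2 to 29.4 points for MLT2. The table lists names alphabetically, so neighbouring rows are often relatives. Neighbouring rows correlated at 0.287 (Pearson) in replicate 1 of untreated DLD1 and between -0.0625 and 0.0828 in the other 14 libraries.

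Technical replicates did not agree over the ERVL names either. Across the 37 names the 6 replicate pairs had Pearson correlations from -0.182 to 0.259, and the largest difference of a name within a pair ranged from 52 to 90 points. The highest of these correlations belonged to the untreated DLD1 pair (Spearman's rho 0.359). Over all 834 names that pair correlated at 0.00477. The rows share a table and are not independent, so these values are descriptions. Values of the other 14 columns were therefore not read as values of the repeats that name the rows.

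**Figure D1:**
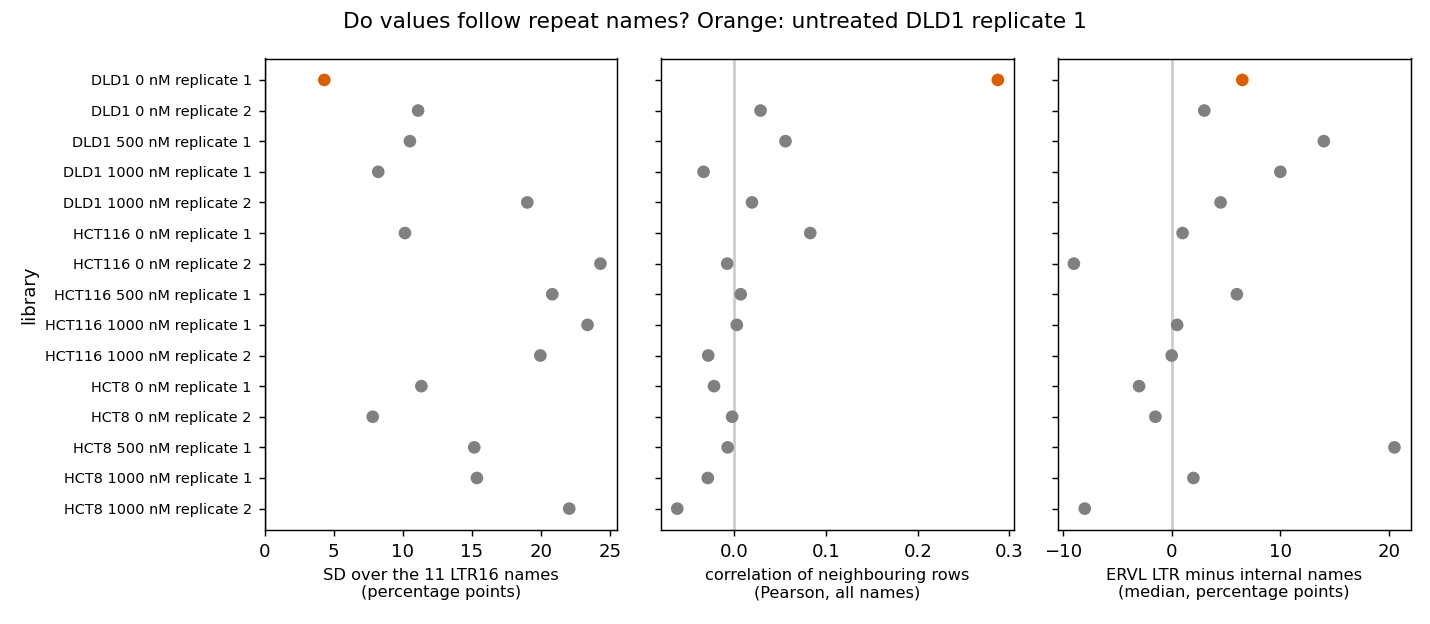
Checks of the 15 libraries (rows), with replicate 1 of untreated DLD1 in orange: the SD over the 11 LTR16 names in percentage points, the Pearson correlation of neighbouring rows of the table, and the median of the ERVL LTR names minus that of the ERVL internal names in percentage points. The orange library has the lowest SD (4.32 points) and the highest neighbour correlation (0.287).

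The rows with ERVL names show what this means in practice. In replicate 1 of untreated DLD1 the 37 values lay between 38% and 69%, and none was at 0% or 100%. Over all 834 names that library ranged from 0% to 100%. In every other library 1 to 6 of the 37 rows were listed at 0% or 100%. The row named MLT2A1 was at 60% in replicate 1 of untreated DLD1, and in the other 14 libraries its lowest value was 0%, its median 54% and its highest 93%. The row named HERVL-int was at 49%, and elsewhere ranged from 22% to 100% with a median of 61.5%.

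The mean over the 37 rows stayed within -3.91 to 4.23 points of the mean of all names in the other 14 libraries. In DLD1 the 37 rows averaged 57.2% and 60.1% without drug, 39.9% at 500 nM, and 37.5% and 39.1% at 1000 nM. In HCT116 they averaged 74.0% and 74.2% without drug, 51.2% at 500 nM, and 55.9% and 66.8% at 1000 nM. In HCT8 they averaged 71.7% and 66.4% without drug, 40.6% at 500 nM, and 49.6% and 46.9% at 1000 nM. In each line all treated libraries lay below both untreated ones, as the libraries did over all names. Because the rows could not be tied to their names, a loss of methylation specific to ERVL elements, or its absence, could not be read from this table.

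In replicate 1 of untreated DLD1 the ERVL names were on the low side of the library without reaching its low end. Their median was 58% against 62% over all 834 names, and their mean was 57.2% ± 7.10 (SD over 37 names) against 60.1% ± 15.3 (SD over 834 names). Of the 37 names 26 (70.3%) lay below the library median, 2 at it and 9 above it, where 47.7% of all names lay below. At least 10 points below the median were 9 of the 37 names (24.3%), close to the 23.0% of all names. At least 10 points above it was none of the 37 names, against 20.4% of all names.

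**Figure D2:**
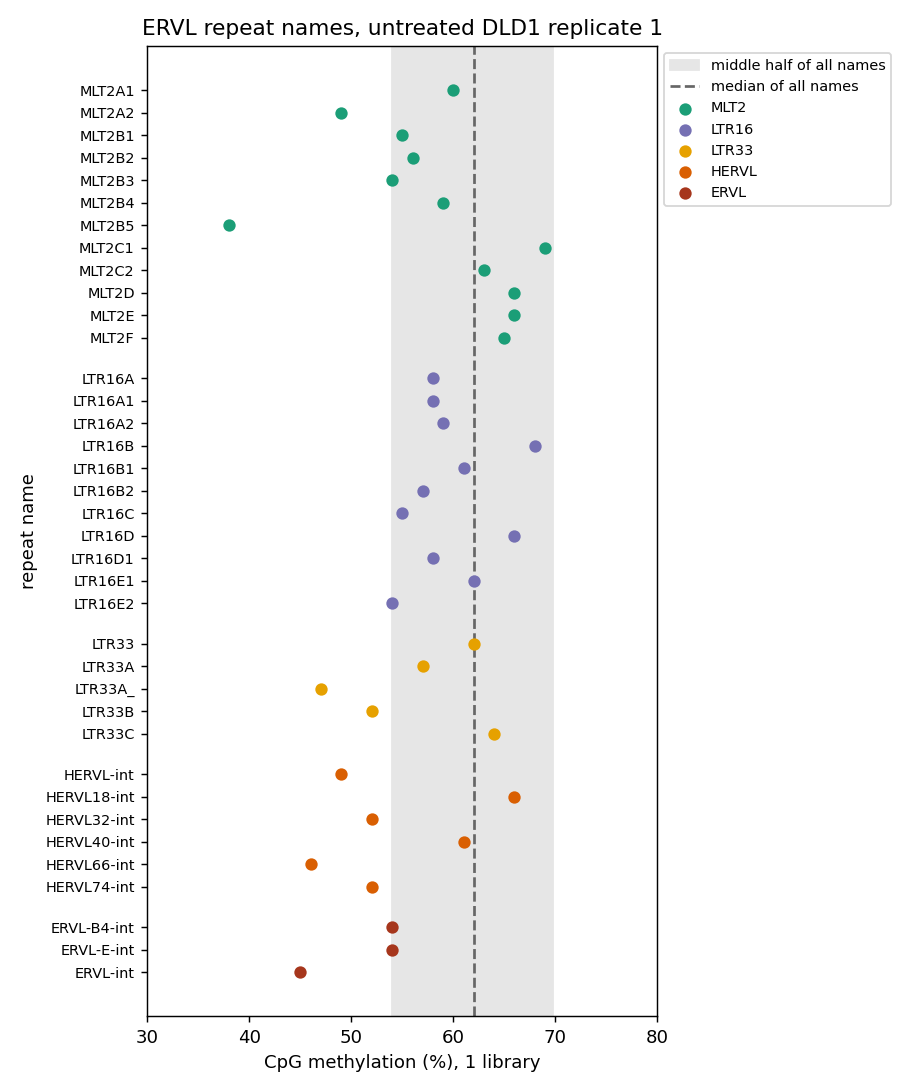
CpG methylation in percent (horizontal axis) of the 37 ERVL repeat names (vertical axis) in replicate 1 of untreated DLD1, coloured by name group. Each point is 1 value from 1 library; the dashed line is the median of all 834 names (62%) and the grey band their interquartile range (54% to 69.75%).

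The MLT2 names, LTRs of HERV-L and its older relatives, spanned the whole range of the set. Their median was 59.5%, with MLT2B5 lowest at 38% and MLT2C1 highest at 69%. The LTRs of HERV-L itself differed from each other, with MLT2A1 at 60% and MLT2A2 at 49%. Among the B names MLT2B1 was at 55%, MLT2B2 at 56%, MLT2B3 at 54% and MLT2B4 at 59%, so MLT2B5 stood 16 points below the next B name. MLT2B5 was at the 7.37th percentile of the library and was the lowest of all 37 names.

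The remaining MLT2 names were higher. MLT2C2 was at 63%, MLT2D and MLT2E at 66% and MLT2F at 65%. All 5 names with the letters C to F lay above the library median (63% to 69%, median 66%), and all 7 names with A or B lay below it (38% to 60%, median 55%). Of all 834 names, 408 lay above the library median and 398 (47.7%) below it. The 2 MLT2 letter groups did not overlap, and their medians were 11 points apart. This division by letter was chosen after the values were seen. In replicate 2 of untreated DLD1, where values were not shown to follow names, the same rows differed by -14 points.

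MaLR elements, non-autonomous relatives of ERVL with the LTR families THE1, MST and MLT1, were described in the same way, also after the values were seen. THE1 is the youngest of these families and MLT1 the oldest. The 4 THE1 LTR names had a median of 51.5% (49% to 55%), the 6 MST LTR names 58% (53% to 60%) and the 28 MLT1 LTR names 62.5% (55% to 67%). All THE1 and MST LTR names lay below the library median. So did 12 of the 28 MLT1 LTR names (42.9%), near the 47.7% of all names. Within MLT1 the medians did not rise or fall steadily by letter. They were 61% for the A names, 63% for E, 67% for F, 63% for G, 60% for H and 61% for J. Each of the remaining letters had 1 name, with values from 59% to 67%.

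**Figure D3:**
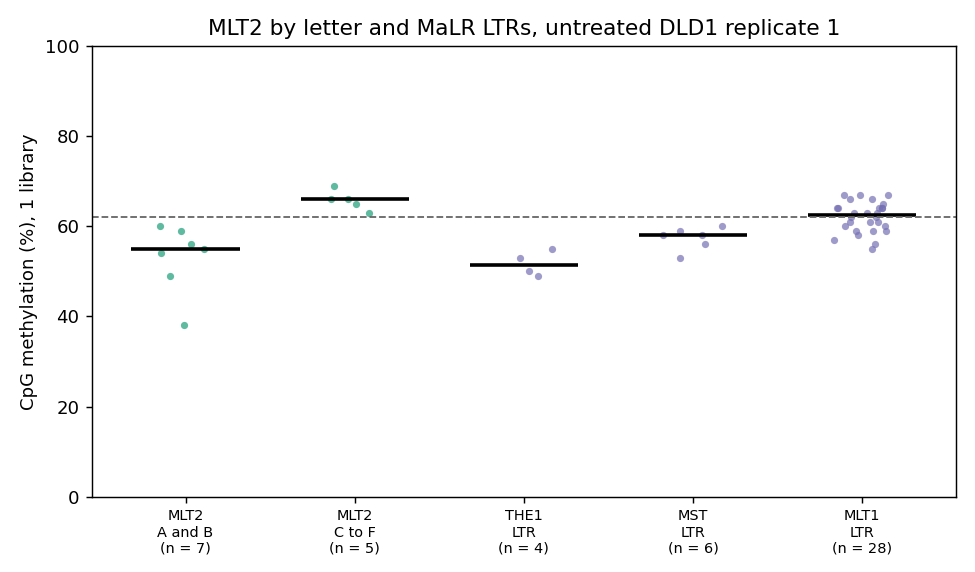
CpG methylation in percent (vertical axis) in replicate 1 of untreated DLD1 for MLT2 names by letter and for the MaLR LTR names by family. Points are repeat names spread sideways at random, black bars are medians, and the dashed line is the median of all names (62%). MLT2 A and B names lie at 38% to 60% and C to F names at 63% to 69%.

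LTR16 names, LTRs of an ancient ERVL family, had the smallest SD of the MLT2, LTR16, LTR33, HERVL and ERVL groups. Their median was 58% and their mean 59.6% ± 4.32 (SD over 11 names), and none lay 10 or more points from the library median. Of all names, 23.0% lay at least 10 points below that median and 20.4% at least 10 points above it. LTR16A and LTR16A1 were both at 58% and LTR16A2 at 59%, so these 3 close relatives were within 1 point of each other. The B names were wider apart, with LTR16B at 68%, LTR16B1 at 61% and LTR16B2 at 57%. LTR16D was at 66% and LTR16D1 at 58%, and LTR16E1 was at 62% and LTR16E2 at 54%. LTR16C stood at 55%. Only LTR16B and LTR16D of the LTR16 names were above the library median, against 408 of all 834 names.

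The 5 LTR33 names, also LTRs of an ancient ERVL family, had a median of 57%. LTR33C was highest at 64% and LTR33 was at the library median of 62%. LTR33A was at 57% and LTR33B at 52%. The separate name LTR33A_ was lowest at 47%, which is 10 points below LTR33A.

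The LTR groups were not set apart from one another by these values. The median of MLT2 exceeded that of LTR16 by 1.5 points and that of LTR33 by 2.5 points, and LTR16 exceeded LTR33 by 1 point. With means instead of medians MLT2 minus LTR16 was -1.30 points, so even the sign was not settled. Each difference was smaller than the SD over the names of any of the 3 groups.

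Internal names of the set were lower than its LTR names, but these are largely not parts of the same elements. The LTR16 and LTR33 names had no internal name of the same number among the 9 internal names. Internal names outside the set were not searched for these numbers. The numbered HERVL names had no LTR of their number among the 28 LTR names. The 9 internal names had a median of 52% and a mean of 53.2% ± 6.76 (SD over 9 names). The 28 LTR names had a median of 58.5% and a mean of 58.5% ± 6.82 (SD over 28 names). The difference of medians was 6.5 points and that of means 5.28 points. Of the 28 LTR names 24 lay above the internal median. The lower quartile of all 834 names was 54%, so most names of the library lay above it as well. The ranges overlapped, and 2 LTR names lay above every internal name. The upper quartile of all names, 69.75%, was itself above the highest internal name (66%).

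Among the internal names ERVL-int was lowest at 45%, followed by HERVL66-int at 46% and HERVL-int, the internal region of HERV-L itself, at 49%. HERVL32-int and HERVL74-int were both at 52%, and ERVL-B4-int and ERVL-E-int both at 54%. HERVL40-int was at 61%. HERVL18-int, at 66%, was the only internal name of the set above the library median.

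Internal names of the ERVL set stood lower than those of the remaining retroviral names, while the LTRs differed less. Outside these ERVL names, MaLR, MER names grouped here with ERVL and the LTRs matched by number, 59 -int names had a median of 62%. A median of 62% was also found for 118 names starting with LTR and a digit, a difference of 0 points. Both groups were picked by spelling alone, so further ERVL names may be among them. Any remaining -int name entered the internal side, while LTRs with other names, such as MER, were left out. The sides were therefore not matched by element. The ERVL internal names were 10 points below their counterparts and the ERVL LTR names 3.5 points below theirs. MaLR also had lower internal names, with 38 LTR names at a median of 60.5% and 26 internal names at 51.5%. The MaLR names were taken out of the wider group after the values were seen. The MaLR names, the 17 MER names grouped here with ERVL and the LTRs matched by number were also kept in on both sides. That wider group had a median of 62% for 179 LTR names and 59% for 87 internal names, a difference of 3 points. With the same 87 internal names but only the LTRs matched by number added on the LTR side, the median of 126 LTR names was 62.5% and the difference 3.5 points.

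**Figure D4:**
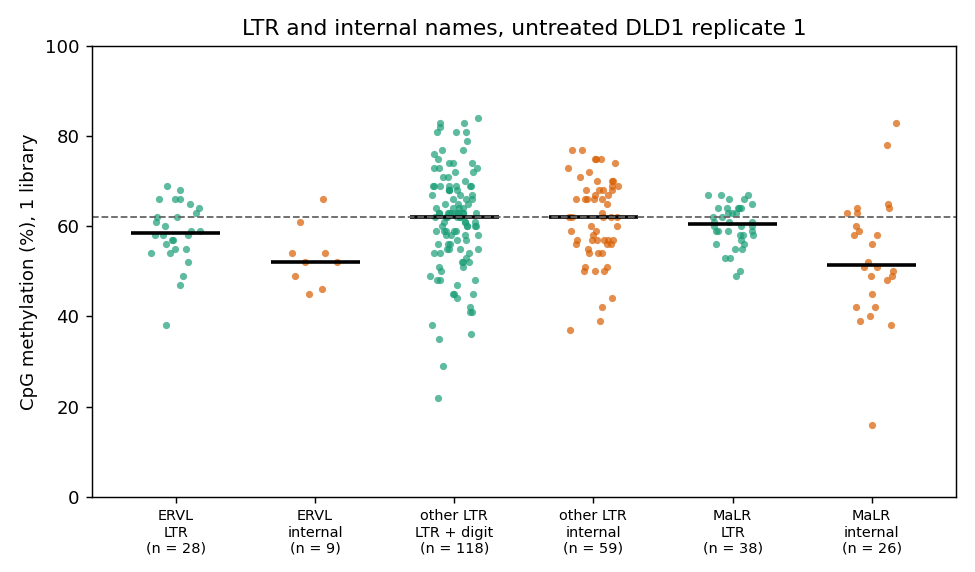
CpG methylation in percent (vertical axis) of LTR names (green) and internal names (orange) in replicate 1 of untreated DLD1, for the ERVL set, for the 118 and 59 other retroviral names, and for MaLR. Points are repeat names spread sideways at random, black bars are medians, and the dashed line is the median of all names (62%). The ERVL bars are at 58.5% and 52%, and those of the other retroviral names are both at 62%.

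Some internal names can be set beside LTRs of the same element or number. HERVL-int (49%) was 11 points below MLT2A1 and equal to MLT2A2. ERVL-B4-int (54%) was 5 points below MLT2B4. HERVL66-int (46%) was 17 points below LTR66 (63%), and HERVL32-int (52%) was 9 points below LTR32 (61%). HERVL18-int (66%), the highest internal name, also had high LTRs, with LTR18A at 75% and LTR18B at 68%.

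HERVL40-int (61%) did not fall into this order. LTR40b (66%) and LTR40c (76%) were above it, and LTR40a (51%) and LTR40A1 (43%) were below it. Over the 11 pairs the LTR was higher in 8, lower in 2 and equal in 1, with a median difference of 5 points and a range from -18 to 17 points. Pairs that share an internal name are not independent, and no name starting with LTR74 was available to set beside HERVL74-int. The MER74 names share the number of HERVL74-int but were not among the pairs. HERVL74-int (52%) lay below MER74A (58%) and MER74B (67%) and above MER74C (38%).

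In the other 14 libraries the rows named as ERVL LTRs minus those named as internal regions gave differences of medians from -9 to 20.5 points, above 0 in 9 libraries, below 0 in 4 and at 0 in 1. In the second untreated DLD1 library the difference was 3 points, and in the untreated HCT116 libraries 1 and -9 points. The untreated HCT8 libraries gave -3 and -1.5 points. The sign thus changed between technical replicates of HCT116, and the difference seen in replicate 1 of untreated DLD1 has no independent check in this table.

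As a set the ERVL names were close to MaLR, with a median of 58% against 59% for 64 MaLR names and means of 57.2% and 57.4%. Below the library median were 41 of the 64 MaLR names (64.1%) and 26 of the 37 ERVL names (70.3%), so the low side was not particular to ERVL. At least 10 points above it were 2 MaLR names and no ERVL name. The spread was smaller in ERVL (SD 7.10 points over 37 names) than in MaLR (SD 9.87 points over 64 names). For comparison, 17 MER names were grouped with ERVL by their first letters (MER21, MER54, MER68, MER70, MER74, MER76 and MER77 names). This grouping was not checked against an annotation, so some may not be ERVL. The 17 MER names had a median of 58%, as the ERVL set had. They ranged more widely, from 38% to 76%. Below the library median were 9 of 17 (52.9%), near the 47.7% of all names. The 8 LTRs matched by number were higher, with a median of 64.5% and 3 of 8 (37.5%) below the library median.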

How the data were processed

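Bisulfite sequencing libraries of 3 colorectal carcinoma cell lines were made from DNA with the EpiGnome kit and read as 75 bp pairs on a MiSeq, per the labels' protocols. A label naming the molecule as total RNA contradicts these protocols; the values were treated as DNA methylation. Per the file headers, the authors deposited percent CpG methylation for repeats annotated in RepeatMasker, as whole percent values per repeat name and library. BSMAP 2.74, Picard 1.8.4 and hg19 are named in the submitters' processing notes, without their use. How copies were combined, any coverage filter and the reads per value are not stated there, so depth is unknown and no counting interval can be given; short reads in repeats may also map to more than 1 copy or name.

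Of 835 rows, 1 (0.12%) had no name and was left out. Column names equal sample titles. Names were grouped by their first letters, and medians, SDs and percentiles were computed with Python 3.11.15, pandas 2.3.3, numpy 2.4.6 and scipy 1.17.1. The calculation was tested on simulated data. No p-value was computed, because 1 library was read by name. Every ERVL name could be named, and outside the set only LTRs sharing a number with an internal name. MER names were given by group, except the MER74 names, which share a number with HERVL74-int. Members, lists and comparisons were chosen with earlier results of these data known. Alternatives were means, other references and memberships, trimmed groups and the second untreated DLD1 library. No repeat sequences or coordinates were used here.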

Additional observations from a re-analysis of the deposited data

How the results depend on the processing

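A value was taken as unmoved when it changed by less than 1.63 points, the SD over the AluS names in replicate 1 of untreated DLD1, or by less than 0.1 for a correlation. The ERVL set minus all names was -5 to -2.90 points under the alternatives within that library, and LTR minus internal names 5.28 to 7.5 points. With means, MLT2 minus LTR16 reversed to -1.30 points, LTR16 minus LTR33 became 3.24 points and MLT2 C to F minus A and B 12.8 points. With replicate 2 of untreated DLD1 in place of replicate 1, MLT2 minus LTR16 was -6.5, MLT2 minus LTR33 8.5, LTR16 minus LTR33 15, LTR minus internal names 3, the set minus all names -2, the set minus MaLR -6 and MLT2 C to F minus A and B -14 points; values there were not shown to follow names. The 26 names below the median became 9 at 10 points below it. The correlation of 0.259 between the untreated DLD1 replicates over the ERVL names was 0.359 by Spearman, and over all names 0.00477 by Pearson and 0.0177 by Spearman. For names outside the ERVL set and its related names, which may still hold other ERVL names, LTR minus internal names was 0 points. It became 3 points with the related names kept in on both sides and -0.263 points with means. With MaLR and MER names kept in on the internal side only it was 3.5 points. These alternatives, the MLT2 letter comparison and the MaLR comparison in replicate 2 were added after the data were seen. No paired analysis was possible because the results come from no test and only 1 library was read by name, which also left no replicate to leave out. Unknown depth limits every value.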
